A study of Mus musculus with 9 samples.

Results

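The enzymes described here are those that build cholesterol and unsaturated fatty acids from acetyl-CoA. They were taken by gene symbol from a list of 29 enzymes, and all 29 were found among the 31232 genes of the deposited table. All 29 also passed the filter on low counts and were tested. Of these, 19 act in sterol synthesis, and 10 supply acetyl-CoA or make, desaturate and elongate fatty acids.

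The cells were bEnd.3, a mouse brain endothelial line immortalised with polyoma middle T antigen, grown on glass coverslips and exposed to flow in a parallel-plate chamber. The Vortex group, which the protocol calls VSS, received a vortex flow of 0.5 to 2 dyne/cm2, set up to stand for late intracranial aneurysm. The HSS group received laminar flow at 20 dyne/cm2, standing for early aneurysm, and the PSS group laminar flow at 10 dyne/cm2, standing for normal cerebral vessels. Each group had 3 polyA RNA libraries. All groups share the same line and culture medium, and no group without flow was analysed here. How long the flow lasted is not stated in the labels. The submitters call the RNA sent for sequencing mixed and do not say that the 3 libraries of a group came from separate cultures, so the p-values below measure only the spread between these libraries, which may be technical.

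Sterol synthesis condenses acetyl-CoA to mevalonate, turns mevalonate into isoprenoid diphosphates, joins farnesyl diphosphate into squalene, closes squalene to lanosterol and then trims lanosterol to cholesterol. Fatty acid synthesis starts from the same cytosolic acetyl-CoA, and desaturases and elongases then shape the chains that enter membrane lipids. Transcription of most of these enzymes is controlled by the SREBP factors, which are held in the endoplasmic reticulum while its membrane is rich in cholesterol and released when it is poor.

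Total counts ranged from 17407217 to 22965802 per library. Vortex replicate 2 stood apart: it lay at -122 on the first principal component, where the other 8 libraries lay between -44.7 and 64.8, and its counts followed the GC content of the genes. Counts of called genes are therefore given with and without it, as are single values where its removal changes the call. Of 12 endothelial marker genes, 8 were lower and 0 higher in HSS than in PSS by edgeR's quasi-likelihood test, and 0 were lower and 1 higher in Vortex than in PSS. Over all tested genes the shares were 3.7% lower and 4.18% higher in HSS, and 5.03% and 8.33% in Vortex. The marker counts without Vortex replicate 2 were 11 and 1 in HSS and 10 and 1 in Vortex, with 13.7% and 15.4% of all genes in HSS and 16.6% and 19.7% in Vortex. The markers summed to 1251, 7101 and 1616 CPM (counts per library scaled by TMM to a common depth) in the 3 Vortex libraries, 701 to 718 CPM in HSS and 2473 to 3224 CPM in PSS. Claudin 5 (Cldn5), a tight junction marker of brain endothelium, had 2, 0 and 0 counts in HSS, against 1162, 1202 and 1110 counts in PSS. Its counts in Vortex were 13, 7791 and 62. In HSS 11 of the 12 endothelial markers were below PSS without overlap and 1, Flt1, above, with 26.3% and 29.9% of all tested genes. Flt1 had 485, 447 and 459 CPM in Vortex, 334, 329 and 338 CPM in HSS and 255, 258 and 178 CPM in PSS. Markers of macrophages and leukocytes, 6 genes in all, summed to 75.8, 21.2 and 46.1 CPM in Vortex, 21.6 to 24.6 CPM in HSS and 6.26 to 6.68 CPM in PSS, and of the 2 tested, 2 were higher in Vortex and 1 in HSS than in PSS, with and without Vortex replicate 2. Ptprc, a leukocyte marker, was at 0 in every Vortex library, in PSS replicate 2 and in HSS replicate 2. Adgre1, Itgam and Cx3cr1, of the same list, were also at 0 in some libraries. Fibroblast markers, 5 genes, summed to 633, 56.2 and 542 CPM in Vortex, 318 to 331 CPM in HSS and 271 to 340 CPM in PSS. Markers of pericytes and smooth muscle summed to 6.15 to 49.5 CPM, of astrocytes to 2.72 to 6.91 CPM, of neurons to 0.715 to 2.07 CPM and of epithelium to 3.92 to 19.7 CPM over the 9 libraries, and of these and the fibroblast list 1 astrocyte gene was called, lower in HSS and in Vortex against PSS. Calls against PSS without Vortex replicate 2 were also made among the fibroblast markers (0 lower and 1 higher in HSS, 1 lower and 2 higher in Vortex), and 0 or 1 per direction in the other 4 lists. The part of these shifts in the enzyme results below was not tested. In bulk RNA, fewer cells of a type and less RNA per cell cannot be told apart.

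In PSS the enzymes spanned a wide range of levels, compared here in the deposited FPKM, which accounts for gene length. Scd2, a stearoyl-CoA desaturase that makes monounsaturated fatty acids, was highest at 377 ± 50.9 FPKM (SD, n = 3). Its paralog Scd1 (83.6 ± 4.15 FPKM), the elongase Elovl5 (79.7 ± 14.1 FPKM) and the desaturase Fads2 (74.4 ± 9.11 FPKM) followed, and these 3 did not differ beyond their spread. The highest sterol enzyme was Cyp51 with 53.3 ± 3.52 FPKM, and the lowest genes were Tm7sf2 with 2.33 ± 0.282 FPKM and Acss2 with 1.69 ± 0.131 FPKM. Scd2 was also the highest of the 29 in Vortex (248 ± 77.9 FPKM) and in HSS (243 ± 2.38 FPKM). It alone made up 28.7% to 43.3% of the counts of all 29 genes in a library. The enzymes together took 0.302%, 0.430% and 0.422% of all counts in the Vortex libraries, 0.317% to 0.319% in HSS and 0.511% to 0.581% in PSS.

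**Figure D1:**
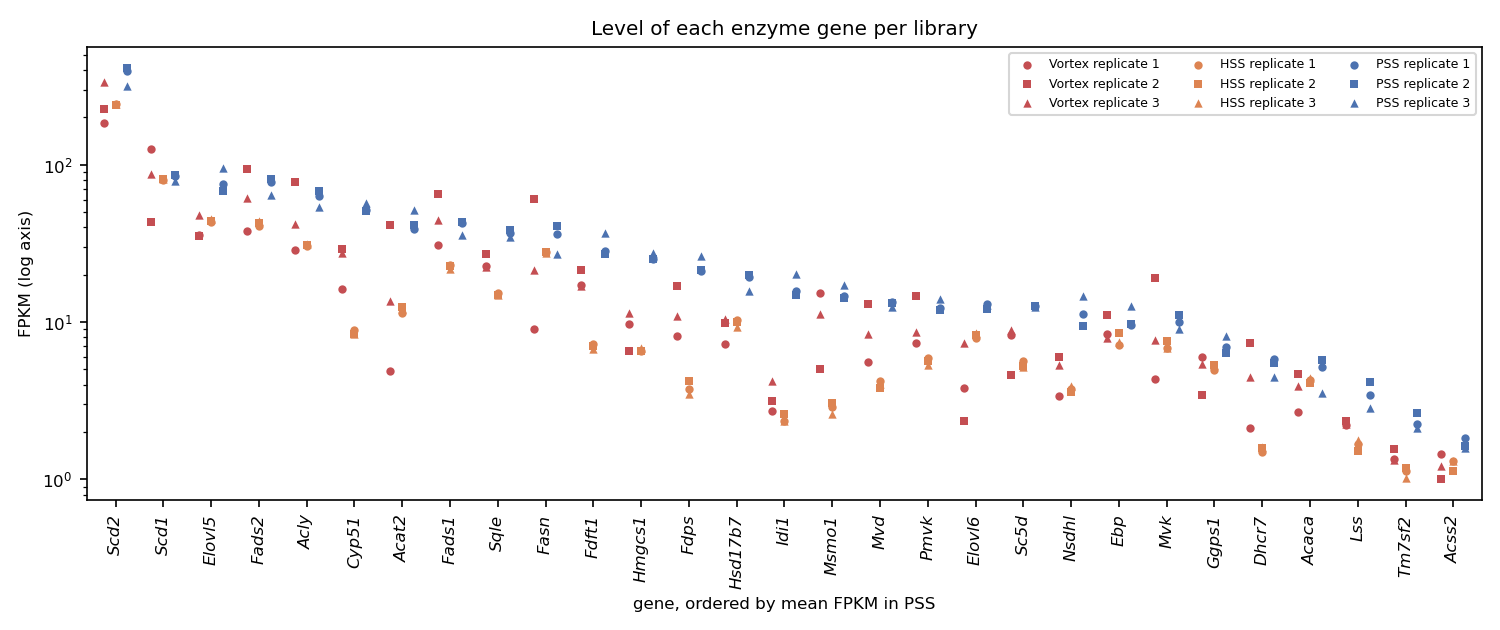
Deposited FPKM (log axis) of the 29 enzyme genes in each of the 9 libraries, ordered by their mean in PSS; circles, squares and triangles are replicates 1, 2 and 3. Scd2 lies above the other genes in every library, and the HSS points of many sterol enzymes lie well below the PSS points.

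Under HSS most enzymes of the sterol pathway were lower than under PSS. By edgeR's quasi-likelihood test at a Benjamini-Hochberg adjusted p under 0.05, 16 of the 29 enzymes were lower and 0 were higher. Over all 15774 tested genes, 3.7% were called lower and 4.18% higher, 7.87% in all. The median log2 fold change of the 29 was -1.04, where that of all tested genes was -0.0049, and all 29 values were below 0. No enzyme was higher at an unadjusted p under 0.05, nor with DESeq2 or limma-voom, which called 19 and 16 lower. Among all genes DESeq2 called 2456 and limma-voom 1134 in either direction. Of the 16, 15 were among the 19 sterol enzymes and 1, Elovl5, among the 10 others.

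The libraries of the 2 groups did not overlap for 26 enzymes, all lower in HSS; 26.3% of all tested genes were lower without overlap. Acaca, Fasn and Scd1 were the 3 whose libraries overlapped. The count of called enzymes depended on the libraries in the fit, whose estimate of spread all 3 groups share. It was 22 without Vortex replicate 2, when 13.7% of all genes were called lower, and 26 in a fit of the HSS and PSS libraries alone, with 20.4% of genes. All 19 sterol enzymes were among these 26. The count of called enzymes was 8 and 9 without PSS replicates 1 and 2, and 7 without each of the HSS replicates 1, 2 and 3, when 0.872% to 1.52% of genes were called lower. The 7 called in all 9 fits that leave out a library were Hmgcs1, Idi1, Fdps, Fdft1, Sqle, Cyp51 and Msmo1.

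**Figure D2:**
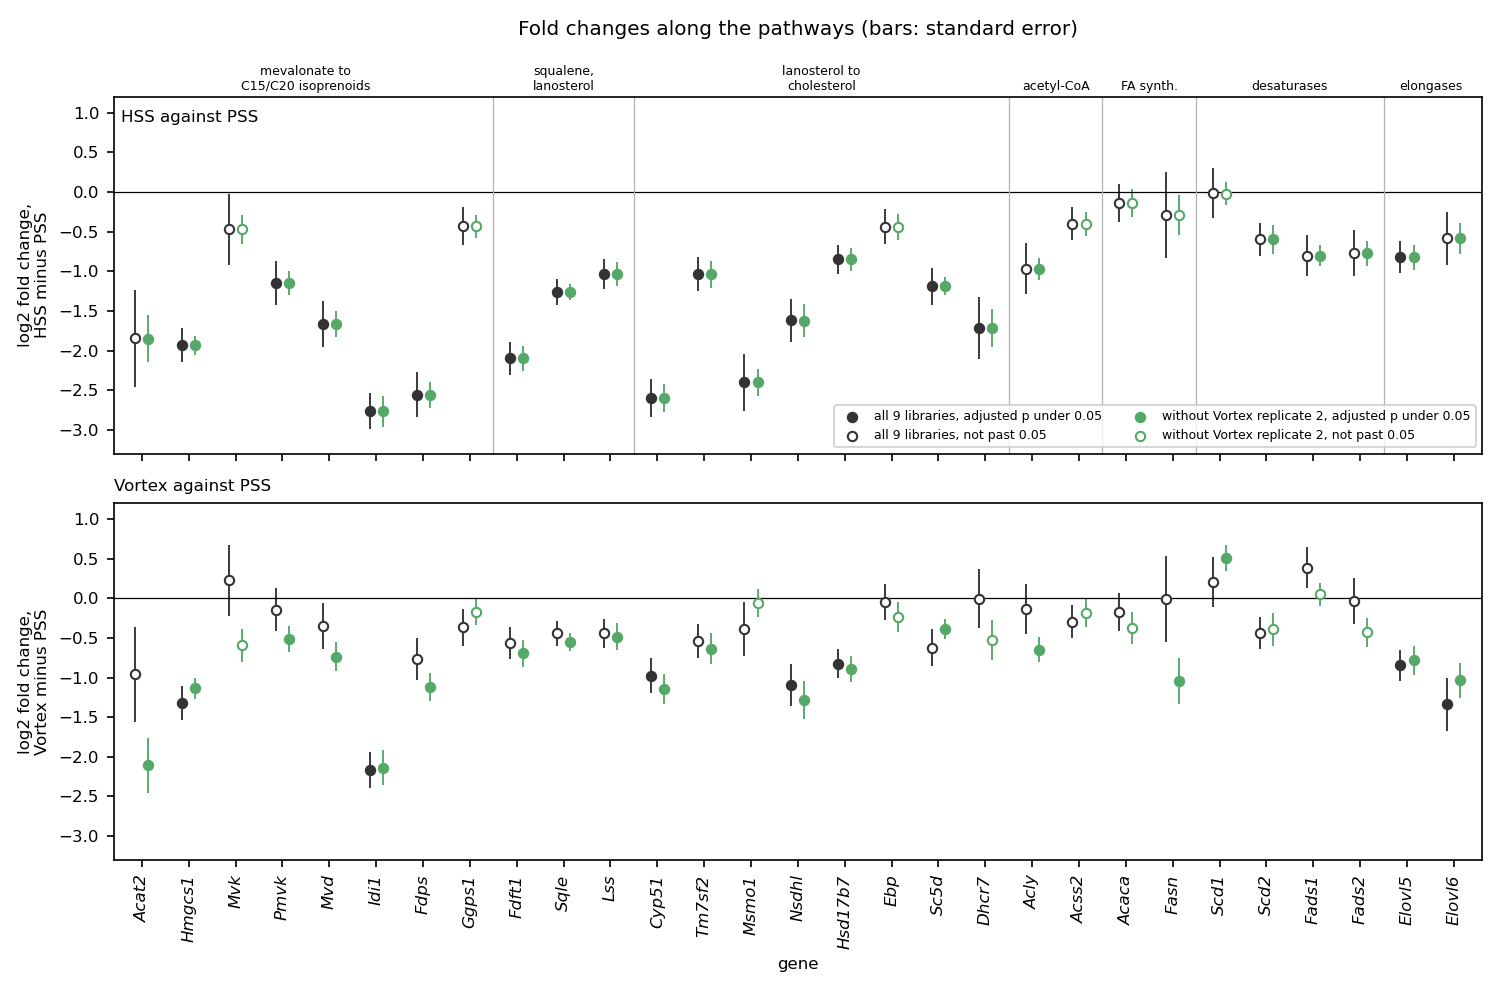
Log2 fold change of each enzyme gene in HSS against PSS (top) and Vortex against PSS (bottom), from the fit of all 9 libraries (dark) and without Vortex replicate 2 (green); bars are standard errors and filled points have an adjusted p under 0.05. In the top panel the sterol genes reach -2.77 (Idi1), while the fatty acid genes lie between -0.97 and -0.02.

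All 8 enzymes from acetyl-CoA to the isoprenoid diphosphates were lower in HSS without overlap, and 5 were called. The median log2 fold change over the 8 was -1.76. Idi1 (ENSMUSG00000058258), the isomerase that makes the reactive dimethylallyl unit, showed the largest difference. It had 10.5, 12.1 and 15.3 CPM in Vortex, 8.11, 8.86 and 8.05 CPM in HSS and 51.8, 49.1 and 69.3 CPM in PSS. Every HSS library was thus far below every PSS library, and the Vortex libraries lay just above HSS. Its log2 fold change in HSS was -2.77 (SE 0.23, edgeR adjusted p = 0.00122), a 6.8-fold lower level.

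Fdps, which joins the C5 units into farnesyl diphosphate, had 38, 77.6 and 47.6 CPM in Vortex, 15.4, 17.3 and 14.5 CPM in HSS and 84.1, 84.2 and 110 CPM in PSS. Its log2 fold change in HSS was -2.56 (SE 0.28, edgeR adjusted p = 0.00211). Hmgcs1 (ENSMUSG00000093930), the synthase that commits acetoacetyl-CoA to the pathway, fell by 1.93 on the log2 scale (SE 0.22, edgeR adjusted p = 0.00211). Mvd, the decarboxylase that makes isopentenyl diphosphate, had 11.5, 26.7 and 16.2 CPM in Vortex, 7.64, 6.9 and 7.31 CPM in HSS and 23.4, 23.2 and 22.7 CPM in PSS. The HSS libraries of Mvd sat tightly below all others, at a log2 fold change of -1.67 against PSS (SE 0.30, edgeR adjusted p = 0.012). Pmvk, the phosphomevalonate kinase, had 13.9, 27.5 and 15.4 CPM in Vortex, 9.9, 9.47 and 8.94 CPM in HSS and 20, 19.3 and 23.5 CPM in PSS, and fell by 1.15 in HSS (log2, SE 0.28, edgeR adjusted p = 0.0371).

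The other 3 enzymes of this stretch did not pass with all libraries, but did in the fit of HSS and PSS alone. Acat2, the thiolase that starts the pathway, had a log2 fold change of -1.85 in HSS but a wide error (SE 0.61, edgeR adjusted p = 0.105); without Vortex replicate 2 its SE was 0.29 and its adjusted p 0.00107. Mvk, mevalonate kinase, had a log2 fold change of -0.47 (SE 0.45). The smallest difference was that of Ggps1, which makes the side product geranylgeranyl diphosphate used to anchor proteins in membranes. It had 31.3, 17.7 and 26.5 CPM in Vortex, 23, 24.5 and 24.6 CPM in HSS and 30.8, 28.4 and 37.9 CPM in PSS, a log2 fold change of -0.43 in HSS (SE 0.24, edgeR adjusted p = 0.318).

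All 3 enzymes that carry farnesyl diphosphate to lanosterol fell in HSS. Fdft1 (ENSMUSG00000021273), squalene synthase, had 77.6, 96.1 and 72.5 CPM in Vortex, 29.3, 28.4 and 27 CPM in HSS and 110, 104 and 149 CPM in PSS. The 3 groups did not overlap, and HSS was lower than PSS by 2.10 on the log2 scale (fold change -2.10, SE 0.21, edgeR adjusted p = 0.00141). Sqle, squalene epoxidase, an oxygen-requiring and tightly regulated step, had 138, 163 and 129 CPM in Vortex, 83.2, 80.1 and 80.2 CPM in HSS and 194, 201 and 189 CPM in PSS. It fell by 1.26 in HSS (log2, SE 0.16, edgeR adjusted p = 0.00328). Lss, the cyclase that forms lanosterol, had 26.2, 27.8 and 25 CPM in Vortex, 17.6, 15.9 and 18.8 CPM in HSS and 35.2, 41.9 and 30.1 CPM in PSS. It fell by 1.04 in HSS (log2, SE 0.19, edgeR adjusted p = 0.0133). In each of these genes the Vortex libraries lay between the other groups without overlap.

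All 8 enzymes between lanosterol and cholesterol were lower in HSS without overlap, and 7 were called. The median log2 fold change over the 8 was -1.41. Cyp51 (ENSMUSG00000001467), the lanosterol demethylase, had 78.5, 140 and 125 CPM in Vortex, 38.8, 36.1 and 36.3 CPM in HSS and 216, 210 and 249 CPM in PSS. Its log2 fold change in HSS was -2.60 (SE 0.24, edgeR adjusted p = 0.00134). Msmo1 (ENSMUSG00000031604), the oxidase that starts removal of the methyl groups at C4, had 103, 33.9 and 71.3 CPM in Vortex, 17.4, 18.2 and 15.8 CPM in HSS and 84.3, 82.3 and 105 CPM in PSS. HSS was lowest throughout, by -2.40 against PSS (log2 fold change, SE 0.36, edgeR adjusted p = 0.00602), while the Vortex libraries ranged from well below PSS to the level of PSS.

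Dhcr7, which makes cholesterol from 7-dehydrocholesterol, had 13.5, 46.9 and 27 CPM in Vortex, 8.53, 8.97 and 9.21 CPM in HSS and 32, 30.2 and 25.5 CPM in PSS, a log2 fold change of -1.71 in HSS (SE 0.39, edgeR adjusted p = 0.03). Nsdhl, the decarboxylating dehydrogenase of C4 demethylation, had 10.7, 18.8 and 15.7 CPM in Vortex, 10.5, 9.98 and 10.9 CPM in HSS and 30.1, 25.3 and 41.1 CPM in PSS, a log2 fold change of -1.62 in HSS (SE 0.27, edgeR adjusted p = 0.00908). Sc5d, a sterol desaturase, Tm7sf2, the C14 reductase, and Hsd17b7, the ketoreductase of C4 demethylation, had log2 fold changes of -1.19, -1.04 and -0.85, and all 3 passed. The isomerase Ebp did not pass with all libraries, but did in the fit of HSS and PSS alone. It had 21.3, 28.2 and 18.9 CPM in Vortex, 16.2, 19.3 and 16.8 CPM in HSS and 21, 21.1 and 28.7 CPM in PSS, a log2 fold change of -0.43 in HSS (SE 0.23, edgeR adjusted p = 0.292).

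**Figure D3:**
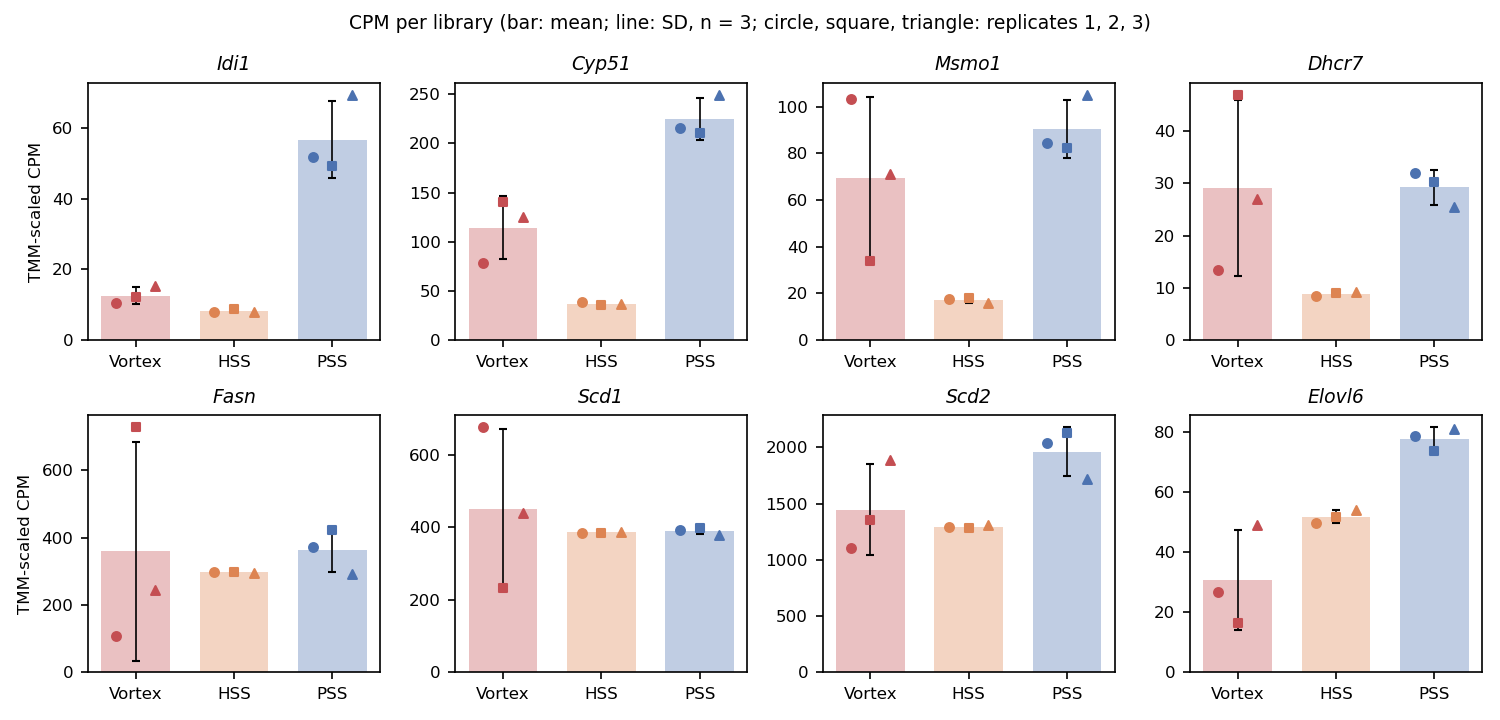
CPM in each library for 8 enzyme genes, with bars at the group mean and lines at the SD (n = 3); circles, squares and triangles are replicates 1, 2 and 3. HSS libraries cluster tightly in every panel, and Vortex replicates 1 and 2 lie far apart for Msmo1 (103 and 33.9 CPM), Fasn (108 and 727 CPM) and Scd1 (675 and 233 CPM).

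Since 15 of the 19 sterol enzymes were called lower in HSS, the sequence just before their start sites is shown for 4 strongly changed genes. It is also shown for Mvk, which did not pass in the fit of all libraries. The RefSeq promoter table on GRCm38.p6 gave a window for 23 of the 29 genes, and the missing ones were Fdps, Fdft1, Sqle, Scd1, Scd2 and Fads1. Each window runs from 250 bases before to 50 bases after the start, and the bases before the start are printed 5′ to 3′ on the strand of the gene. The regions are chr13:119690101-119690350 (plus strand) for Hmgcs1, chr13:8885356-8885605 (plus strand) for Idi1, chr5:4104698-4104947 (minus strand) for Cyp51, chr8:64733579-64733828 (minus strand) for Msmo1 and chr5:114444019-114444268 (plus strand) for Mvk. Capitals mark the NF-Y box CCAAT, which reads ATTGG on the other strand, and, in Hmgcs1, the core of a sterol regulatory element, TCACNCCAC, where N is any base.
Hmgcs1: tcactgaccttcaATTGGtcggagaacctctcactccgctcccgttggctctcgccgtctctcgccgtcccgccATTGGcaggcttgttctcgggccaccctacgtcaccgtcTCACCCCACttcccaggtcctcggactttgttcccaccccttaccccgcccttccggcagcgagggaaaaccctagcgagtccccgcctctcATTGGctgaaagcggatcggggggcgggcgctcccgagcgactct
Idi1: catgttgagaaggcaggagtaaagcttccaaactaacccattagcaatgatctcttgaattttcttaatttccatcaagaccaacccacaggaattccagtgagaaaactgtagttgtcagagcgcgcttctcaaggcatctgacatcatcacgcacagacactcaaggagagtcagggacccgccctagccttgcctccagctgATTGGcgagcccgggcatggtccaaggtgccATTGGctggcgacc
Cyp51: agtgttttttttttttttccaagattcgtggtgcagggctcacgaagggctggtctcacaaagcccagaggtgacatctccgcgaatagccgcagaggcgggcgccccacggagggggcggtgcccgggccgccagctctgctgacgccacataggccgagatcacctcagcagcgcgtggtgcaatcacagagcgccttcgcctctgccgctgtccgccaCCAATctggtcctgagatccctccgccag
Msmo1: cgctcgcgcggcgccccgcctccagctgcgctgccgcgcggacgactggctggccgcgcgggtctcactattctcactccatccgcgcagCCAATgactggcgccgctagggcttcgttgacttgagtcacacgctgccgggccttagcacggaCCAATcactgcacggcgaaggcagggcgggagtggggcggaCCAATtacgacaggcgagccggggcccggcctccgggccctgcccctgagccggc
Mvk: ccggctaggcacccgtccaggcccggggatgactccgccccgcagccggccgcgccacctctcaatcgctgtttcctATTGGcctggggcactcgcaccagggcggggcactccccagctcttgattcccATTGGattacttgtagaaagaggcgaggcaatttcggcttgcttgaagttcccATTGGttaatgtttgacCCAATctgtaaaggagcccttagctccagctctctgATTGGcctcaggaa

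Both strands of the 300-base windows were searched. The CCAAT box was present in 19 of 23 enzyme genes (82.6%) and in 41.1% of all genes in the table. It was found in 15 of 16 sterol enzymes and 4 of 7 others. The Sp1 box GGGCGG was present in 17 of 23 (73.9%), against 38.2% of all genes. Among the 23, TCACNCCAC was found in Hmgcs1 only, 137 bases before its start, and in 1.44% of all genes. Sterol regulatory elements that depart from this core were not searched for, and 6 enzymes had no window. Before the start, Hmgcs1 and Msmo1 held 3 CCAAT matches each, Idi1 held 2 and Cyp51 held 1. Mvk, whose HSS libraries were below PSS by a smaller difference, held 5. A relation between the number of matches and the change was not tested.

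The 10 enzymes of acetyl-CoA supply and fatty acid metabolism differed less in HSS, with a median log2 fold change of -0.59 and 1 gene past the test. Their libraries were lower in HSS without overlap for 7 of 10 genes. DESeq2 called 3 of them lower, and edgeR 6 without Vortex replicate 2. Acly, which cleaves citrate to cytosolic acetyl-CoA, had 167, 449 and 230 CPM in Vortex, 157, 158 and 161 CPM in HSS and 317, 337 and 278 CPM in PSS. The log2 fold change in HSS was -0.97 (SE 0.32, edgeR adjusted p = 0.103), and its adjusted p without Vortex replicate 2 was 0.000626. Acss2, which activates acetate, had 16.1, 11.1 and 12.8 CPM in Vortex, 13.1, 11.2 and 13 CPM in HSS and 17.6, 15.7 and 15.9 CPM in PSS (HSS log2 fold change -0.40, SE 0.21, edgeR adjusted p = 0.291).

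The enzymes that build the fatty acid chain showed no difference past the test. Fasn, fatty acid synthase, had 108, 727 and 243 CPM in Vortex, 298, 299 and 295 CPM in HSS and 374, 422 and 293 CPM in PSS. Acaca, the carboxylase that makes malonyl-CoA, had 50.5, 87.2 and 69.8 CPM in Vortex, 71.7, 68 and 73.3 CPM in HSS and 83.4, 91.6 and 59.5 CPM in PSS. PSS replicate 3 was lowest of its group for both genes and below every HSS library. Their log2 fold changes in HSS were -0.29 (SE 0.54, edgeR adjusted p = 0.812) and -0.14 (SE 0.24, edgeR adjusted p = 0.792).

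The 4 desaturases split by gene. Scd1 had 675, 233 and 440 CPM in Vortex, 385, 385 and 386 CPM in HSS and 393, 398 and 380 CPM in PSS, a log2 fold change of -0.02 in HSS (SE 0.32, edgeR adjusted p = 0.984). Scd2 had 1103, 1351 and 1890 CPM in Vortex, 1295, 1283 and 1311 CPM in HSS and 2037, 2128 and 1715 CPM in PSS, a log2 fold change of -0.60 in HSS (SE 0.21, edgeR adjusted p = 0.114). It was called lower in HSS without Vortex replicate 2. In FPKM the ratio of Scd2 to Scd1 was 1.46, 5.19 and 3.84 in Vortex, 3.01, 2.98 and 3.04 in HSS and 4.64, 4.79 and 4.04 in PSS. The HSS ratios lay below all PSS ratios, and the Vortex ratios spread beyond both groups. Scd1 and Scd2 are close paralogs, so reads that both could take leave their values uncertain.

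Fads1 and Fads2 are the desaturases that introduce the delta-5 and delta-6 double bonds of polyunsaturated fatty acids. Fads1 had 164, 345 and 221 CPM in Vortex, 109, 107 and 103 CPM in HSS and 193, 195 and 168 CPM in PSS, a log2 fold change of -0.80 in HSS (SE 0.26, edgeR adjusted p = 0.0936). Fads2 had 137, 339 and 210 CPM in Vortex, 132, 138 and 141 CPM in HSS and 241, 252 and 208 CPM in PSS, a log2 fold change of -0.77 in HSS (SE 0.29, edgeR adjusted p = 0.146). Both passed without Vortex replicate 2, at adjusted p-values of 0.00157 and 0.00511 by edgeR. Their ratio in FPKM, Fads2 over Fads1, was 1.23, 1.44 and 1.39 in Vortex, 1.77, 1.87 and 2.00 in HSS and 1.82, 1.88 and 1.81 in PSS, so the Vortex ratios lay below those of both laminar groups.

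Elovl5, which elongates polyunsaturated chains, had 138, 135 and 176 CPM in Vortex, 148, 151 and 157 CPM in HSS and 251, 225 and 331 CPM in PSS. It fell in HSS by 0.82 (log2, SE 0.20, edgeR adjusted p = 0.0365). Elovl6, which elongates the palmitate made by Fasn, had 26.9, 16.5 and 49 CPM in Vortex, 49.9, 51.7 and 54 CPM in HSS and 78.8, 73.6 and 80.9 CPM in PSS, a log2 fold change of -0.58 in HSS (SE 0.33, edgeR adjusted p = 0.338). It was called lower in HSS when Vortex replicate 2 was left out. For Elovl6 all 3 Vortex libraries were below all HSS libraries, and these below all PSS libraries.

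Under Vortex flow fewer enzymes passed. Against PSS, 7 of the 29 were lower and 0 higher by edgeR's test, where 5.03% of all tested genes were called lower and 8.33% higher. The 7 were Hmgcs1, Idi1, Cyp51, Nsdhl, Hsd17b7, Elovl5 and Elovl6. No enzyme was higher at an unadjusted p under 0.05, nor by DESeq2 or limma-voom, which called 11 and 7 lower. Among all genes DESeq2 called 3489 and limma-voom 2062 in either direction. The median log2 fold change of the 29 was -0.44, that of all tested genes 0.11, and 26 of the 29 were below 0. With library totals in place of TMM scaling, 10 enzymes were lower, the enzyme median was -0.60 and the median of all genes -0.06. Under that scaling 835 of 2000 called genes (41.8%) were higher, against 1314 of 2107 (62.4%) with TMM, and 0 enzymes were higher under either. Vortex and PSS libraries did not overlap for 13 enzymes, all lower in Vortex; 14.4% of all tested genes were lower without overlap.

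The count of called enzymes depended on single libraries. Without Vortex replicate 2, 18 were lower and 1, Scd1, was higher, while 16.6% of all genes were called lower and 19.7% higher. It was 2, 4 and 3 without PSS replicates 1, 2 and 3, and 2 without each of the HSS replicates 1, 2 and 3, all lower, when 1.37% to 2.64% of genes were called lower. In a fit of the Vortex and PSS libraries alone only Idi1 was called, with 0.224% of all genes lower. Hmgcs1 and Idi1 were called in all 9 fits that leave out a library.

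Idi1 showed the largest difference in Vortex too, at a log2 fold change of -2.17 (SE 0.22, edgeR adjusted p = 0.0022), and was lower in 3 of 3 Vortex libraries than in any PSS library. Hmgcs1 had 49.5, 32.7 and 54.3 CPM in Vortex, 29.3, 29.3 and 30.7 CPM in HSS and 109, 108 and 124 CPM in PSS, a log2 fold change of -1.32 in Vortex (SE 0.21, edgeR adjusted p = 0.00662). Cyp51 fell by 0.97 in Vortex (log2, SE 0.23, edgeR adjusted p = 0.0232), Nsdhl by 1.10 (SE 0.27, edgeR adjusted p = 0.0277) and Hsd17b7 by 0.82 (SE 0.19, edgeR adjusted p = 0.0209). All 3 are enzymes of the lanosterol-to-cholesterol stretch, and the Vortex libraries were below all PSS libraries for each. None of the 3 passed with the GC trend removed from each library, at -0.65, -0.68 and -0.53 (log2 fold changes, edgeR adjusted p = 0.180, 0.234 and 0.183).

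Both elongases passed in Vortex. Elovl6 had a log2 fold change of -1.34 (SE 0.34, edgeR adjusted p = 0.0325) and Elovl5 of -0.85 (SE 0.20, edgeR adjusted p = 0.0236). Without Vortex replicate 2 the values were -1.03 and -0.78, and both passed, while with the GC trend removed Elovl5 did not, at -0.59 (edgeR adjusted p = 0.0624). Fdft1 was lower in all 3 Vortex libraries than in PSS but did not pass, with a log2 fold change of -0.56 (SE 0.20, edgeR adjusted p = 0.0942). The same held for Sqle at -0.44 (SE 0.16, edgeR adjusted p = 0.0992) and Fdps at -0.77 (SE 0.27, edgeR adjusted p = 0.0901), and all 3 passed without Vortex replicate 2.

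Differences near 0 in Vortex often hid libraries that went opposite ways. Dhcr7 had a log2 fold change of -0.01 against PSS (SE 0.37), with replicate 1 below and replicate 2 above every PSS library. Fasn had -0.01 (SE 0.54) and was at 108 CPM in replicate 1 and 727 CPM in replicate 2, outside the PSS range on both sides. Without Vortex replicate 2 Fasn was at -1.04 (log2 fold change, SE 0.29, edgeR adjusted p = 0.0187). Fads2 at -0.03 (SE 0.29), Pmvk at -0.14 (SE 0.27) and Acly at -0.14 (SE 0.32) showed the same split between replicates 1 and 2. Of the remaining members, Acat2, Mvd, Sc5d, Tm7sf2, Lss, Scd2, Msmo1, Ggps1, Acss2, Acaca and Ebp had log2 fold changes of -0.96 to -0.05, Scd1 and Mvk of 0.20 and 0.23 and Fads1 of 0.39, and none passed. Without Vortex replicate 2, Acat2 was at -2.11 (log2 fold change, SE 0.34, edgeR adjusted p = 0.0012), and Acly, Pmvk, Mvd, Sc5d, Tm7sf2 and Lss were also lower past the test. For Scd1, Vortex replicates 1 and 3 were above every PSS library and replicate 2 below; without replicate 2 its log2 fold change was 0.51 (SE 0.16, edgeR adjusted p = 0.0333).

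**Figure D4:**
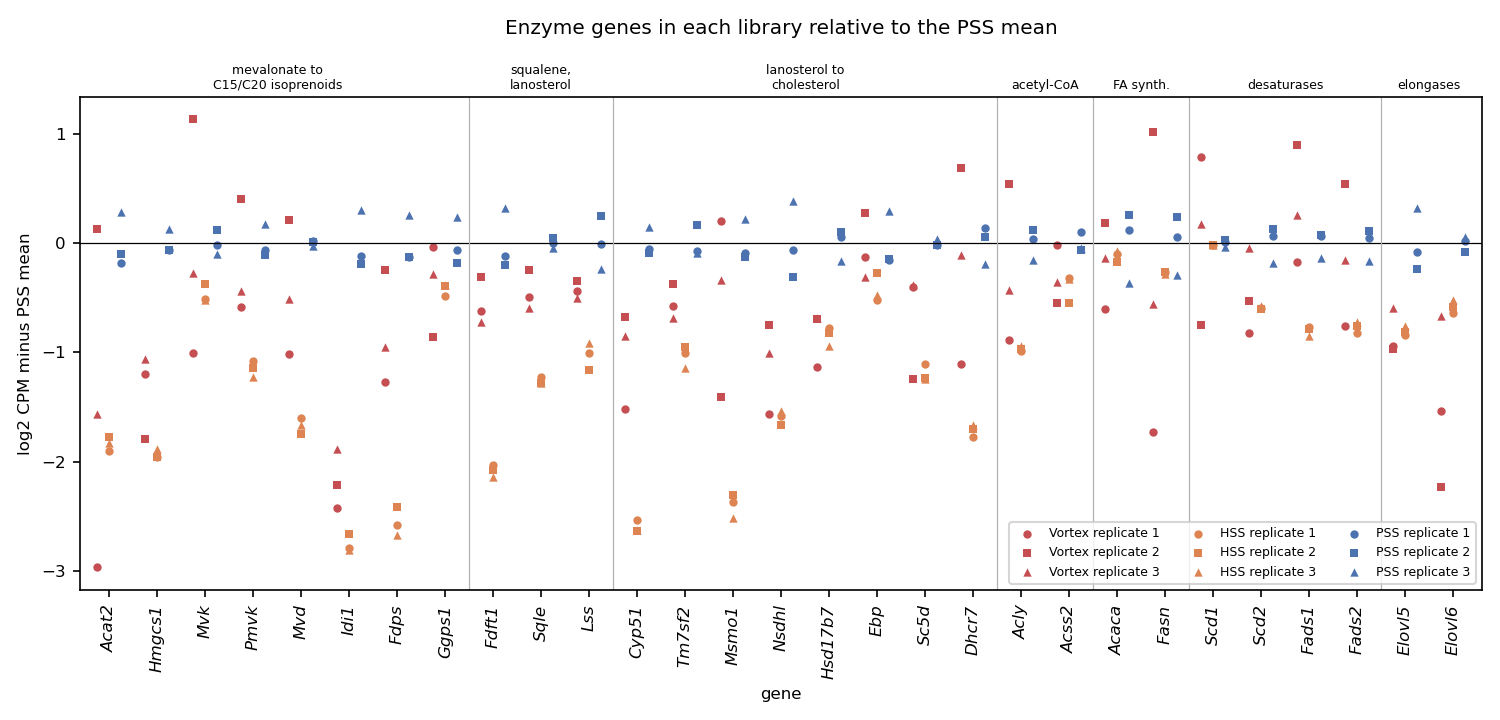
Log2 CPM of each enzyme gene in each library minus its mean over the 3 PSS libraries, in pathway order. HSS points form tight groups below 0, reaching -2.80 for Idi1, while the 3 Vortex points of a gene often spread widely, from -1.01 to 1.13 for Mvk.

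In Vortex replicate 2 the enzymes sorted by the GC content of their transcripts. Across the 29 genes, its deviation from the PSS mean had a Pearson r of 0.81 and a Spearman rho of 0.86 with GC content, where the other 8 libraries gave r of -0.41 to 0.47. The 29 genes share the library and its depth, so no p is given. The 11 enzymes above the PSS mean there had a median GC content of 53.2%, and the 18 below it 46.5%. In all genes of that library the median log2 deviation from PSS was -1.47 in the eighth of lowest GC content and 0.88 in the eighth of highest. Vortex replicate 3 was tilted the same way but less, at -0.48 and 0.26. In the remaining libraries these medians ran from -0.16 to 0.15 and from -0.21 to 0.23, with low-GC genes down and high-GC genes up in every HSS library. With the GC trend removed from each library, 18 enzymes were lower in HSS and 7 lower in Vortex against PSS, with 0 higher in both. Of all genes tested there, 4.54% were lower and 4.85% higher in HSS, and 2.86% and 7.72% in Vortex. The 7 were in part different genes: Hmgcs1, Idi1 and Elovl6 were called in both fits, Cyp51, Nsdhl, Hsd17b7 and Elovl5 only without the correction, and Mvd, Fdps, Fdft1 and Tm7sf2 only with it. Idi1 was then at -1.34 in Vortex (log2 fold change, SE 0.33, edgeR adjusted p = 0.0347), and Hmgcs1 at -0.84 (SE 0.15, edgeR adjusted p = 0.0102). In HSS, Acly, Fads1 and Fads2 were gained and Hsd17b7 was lost.

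**Figure D5:**
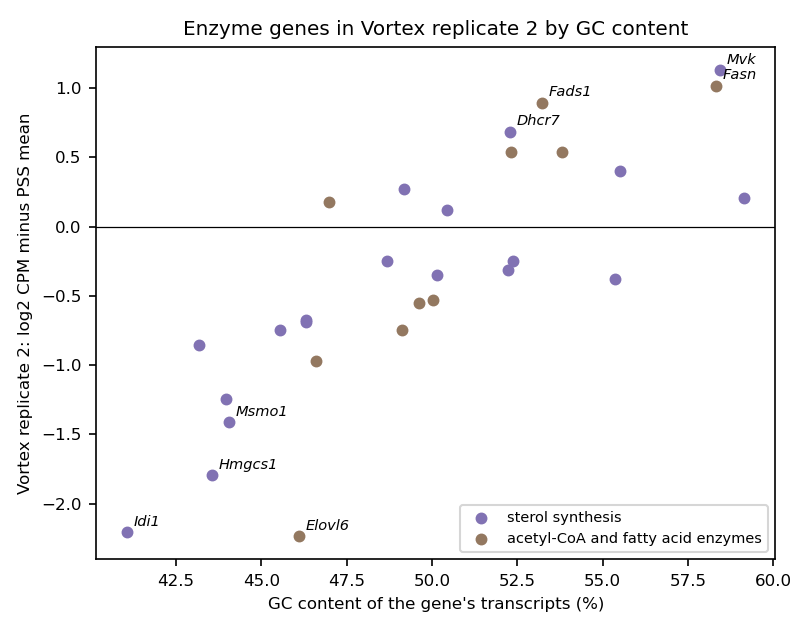
Log2 CPM of each enzyme gene in Vortex replicate 2 minus its PSS mean, against the GC content of the gene's transcripts, coloured by pathway branch. The points tend to lie higher at higher GC content, with Idi1 at 41.1% GC and -2.21 and Mvk at 58.5% GC and 1.13. Mvd, which has the highest GC content at 59.2%, lies at 0.21.

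Set against HSS directly, 8 enzymes were higher in Vortex and 0 lower by edgeR's test, where 4.37% of all tested genes were called higher and 2.67% lower, 7.04% in all. The median log2 fold change of the 29 was 0.60, that of all tested genes 0.10. Of the 8, 7 were sterol enzymes. Elovl6 was lower at an unadjusted p under 0.05, and DESeq2 and limma-voom called none lower. With library totals in place of TMM the count of higher enzymes was also 8, the enzyme median 0.47 and the median of all genes -0.03, and 45.8% in place of 62.1% of all called genes were higher. Vortex libraries lay above HSS without overlap for 14 enzymes, and below for 1, Elovl6; the shares of all tested genes were 19.5% and 16.9%.

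Msmo1 differed most between Vortex and HSS, with a log2 fold change of 2.02 (SE 0.36, edgeR adjusted p = 0.0166). Fdps was at 1.79 (SE 0.28, edgeR adjusted p = 0.013), Dhcr7 at 1.71 (SE 0.39, edgeR adjusted p = 0.0348) and Cyp51 at 1.63 (SE 0.23, edgeR adjusted p = 0.00987). Fdft1 followed at 1.54 (SE 0.20, edgeR adjusted p = 0.00888), Mvd at 1.32 (SE 0.29, edgeR adjusted p = 0.033), Fads1 at 1.19 (SE 0.26, edgeR adjusted p = 0.0303) and Sqle at 0.82 (SE 0.16, edgeR adjusted p = 0.0219). In all 8 genes each Vortex library was above each HSS library. Hsd17b7 and Elovl5, which passed in both comparisons with PSS, differed between Vortex and HSS by 0.03 (log2, SE 0.18) and -0.02 (SE 0.20). Without HSS replicate 1, 2 or 3 the count was 0 each time, with 0.0976% to 0.0987% of all genes called higher, while the enzyme median was 0.60, 0.60 and 0.64. The count was 4, 5 and 6 without PSS replicates 1, 2 and 3, with 1.19%, 2.26% and 4.26% of all genes called higher. Without Vortex replicates 1, 2 and 3 it was 11, 13 and 6, with 8.82%, 13.9% and 3.56% called higher. Without replicate 2, 23.9% of genes were called in either direction, and the enzymes gained were Hmgcs1, Lss, Pmvk, Sc5d and Scd1. In a fit of the Vortex and HSS libraries alone the count was 1, Fdft1 (0.312% higher, 0.126% lower). Without Vortex replicate 3, Elovl6 was called lower.

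The Vortex libraries were read against both laminar groups gene by gene, for the 26 enzymes whose HSS libraries were all below PSS. Replicates 1, 2 and 3 lay between the HSS and PSS ranges for 14, 12 and 19 of the 26. Replicate 2 was above every PSS library for 7, all at a GC content of 52.3% or more: Mvk, Pmvk, Mvd, Dhcr7, Acly, Fads1 and Fads2. Replicate 1 was below every HSS library for 6, Acat2, Mvk, Hsd17b7, Scd2, Elovl5 and Elovl6. This description uses the same PSS and HSS libraries as the comparisons above.

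The groups also differed in spread. The coefficient of variation of CPM over 3 libraries had a median of 28.1% across the 29 genes in Vortex, 4.08% in HSS and 10.8% in PSS. The extremes were 97.5% for Acat2 in Vortex and 0.163% for Scd1 in HSS. The fit uses 1 shared estimate of spread per gene for all groups, so errors of the HSS and PSS comparison carry the Vortex spread.

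Lists of genes around these pathways were counted in the same fit, to be read against the shares of all genes called: 3.7% lower and 4.18% higher in HSS, 5.03% and 8.33% in Vortex, both against PSS. Of 18 genes of sterol sensing, uptake and efflux, 3 were lower and 1 higher in HSS than in PSS, and 1 was lower and 1 higher in Vortex. With Vortex replicate 2 left out the counts were 5 lower and 4 higher in HSS and 2 lower and 6 higher in Vortex, when 13.7% and 15.4% of all genes were called in HSS and 16.6% and 19.7% in Vortex. These shares also apply to the lists below where replicate 2 is left out. The 3 lowered in the fit of all libraries in HSS were Stard4, a cytosolic sterol carrier, Srebf2, which encodes the sterol-regulated SREBP2 factor, and Insig1, which retains SREBPs in the endoplasmic reticulum. Stard4 had 114, 85.4 and 98.8 CPM in Vortex, 56.8, 58.9 and 61 CPM in HSS and 179, 177 and 182 CPM in PSS. It fell by 1.61 in HSS (log2, SE 0.17, edgeR adjusted p = 0.00158) and by 0.85 in Vortex (SE 0.17, edgeR adjusted p = 0.0119).

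Srebf2 had 305, 448 and 311 CPM in Vortex, 93.1, 92.1 and 98.2 CPM in HSS and 279, 303 and 210 CPM in PSS, a log2 fold change of -1.48 in HSS (SE 0.22, edgeR adjusted p = 0.00524). In Vortex against PSS Srebf2 was not called. Its lowest Vortex library, at 304.6 CPM, was barely above its highest PSS library, at 303.5 CPM. Hmgcs1, Idi1 and Cyp51 were below PSS in all Vortex libraries. Insig1 had 128, 70.8 and 97.6 CPM in Vortex, 65.6, 60.3 and 59.1 CPM in HSS and 188, 218 and 122 CPM in PSS, a log2 fold change of -1.51 in HSS (SE 0.28, edgeR adjusted p = 0.0134). Abcg1, a sterol exporter, had 47.6, 29.9 and 35.7 CPM in Vortex, 23.2, 24.7 and 27.8 CPM in HSS and 14.9, 16.3 and 14.4 CPM in PSS. It rose in Vortex by 1.31 (log2, SE 0.21, edgeR adjusted p = 0.00703), and every HSS library was also above every PSS library. Soat1, which esterifies cholesterol, had a log2 fold change of 0.65 in Vortex and did not pass (SE 0.21, edgeR adjusted p = 0.0683), but passed without Vortex replicate 2.

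Of 22 tested enzymes of fatty acid synthesis, elongation and activation outside the 29, 1 was lower and 1 higher in HSS, and 0 were lower and 4 higher in Vortex; none was lower in Vortex at an unadjusted p under 0.05, by DESeq2 or by limma-voom. The counts without Vortex replicate 2 were 3 lower and 4 higher in HSS and 1 lower and 5 higher in Vortex. Fads3, a desaturase paralog, rose in both, with 177, 182 and 205 CPM in Vortex, 197, 192 and 205 CPM in HSS and 84.4, 88.6 and 69.4 CPM in PSS. Its log2 fold change was 1.30 in HSS (SE 0.17, edgeR adjusted p = 0.00344) and 1.22 in Vortex (SE 0.17, edgeR adjusted p = 0.0044), opposite in sign to the HSS values of Fads1 and Fads2. Tecr, the reductase that completes each elongation cycle, fell in HSS by 0.76 (log2, SE 0.18, edgeR adjusted p = 0.0376), and Hsd17b12, which acts in the same cycle, had a log2 fold change of -0.49 (SE 0.16, edgeR adjusted p = 0.0962; 0.0111 without Vortex replicate 2). Slc25a1, the mitochondrial citrate carrier, and Hacd1, an elongation cycle dehydratase, rose in Vortex by 0.98 and 0.99 (log2 fold changes, SE 0.21 and 0.23, edgeR adjusted p = 0.0174 and 0.024).

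In glycerolipid synthesis, 20 genes, 2 were higher and 0 lower in HSS, and 5 higher and 0 lower in Vortex. At an unadjusted p under 0.05, 0 were lower in HSS and 1 in Vortex, and DESeq2 and limma-voom called none lower in either. When Vortex replicate 2 was left out, 1 was lower and 4 higher in HSS, and 3 were lower and 7 higher in Vortex. Dgat2, which makes triglyceride, had 35.6, 69.1 and 46.5 CPM in Vortex, 51.2, 53.8 and 51.3 CPM in HSS and 20.4, 22.4 and 14.9 CPM in PSS, with log2 fold changes of 1.44 in HSS (SE 0.27, edgeR adjusted p = 0.0146) and 1.39 in Vortex (SE 0.27, edgeR adjusted p = 0.0118). Dgat1, the other triglyceride-forming acyltransferase, rose in HSS by 0.88 (log2, SE 0.18, edgeR adjusted p = 0.02). Agpat1, which makes phosphatidic acid, had log2 fold changes of 0.75 in HSS (SE 0.20, edgeR adjusted p = 0.0522, passing without Vortex replicate 2) and 1.00 in Vortex (SE 0.20, edgeR adjusted p = 0.0129). Pisd, which makes phosphatidylethanolamine, rose in Vortex by 0.93 (log2, SE 0.17, edgeR adjusted p = 0.00943).

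The 14 genes of other isoprenoid branches had 0 calls in HSS by edgeR, DESeq2 and limma-voom, with 0 lower and 2 higher at an unadjusted p under 0.05. Leaving out Vortex replicate 2, edgeR called 0 lower and 4 higher, with 13.7% of all genes called lower and 15.4% higher. In the fit of the HSS and PSS libraries alone it called 1 lower and 5 higher, with 20.4% of all genes in each direction. Rabggta, Fntb and Fnta, subunits of prenyltransferases that use the isoprenoid diphosphates, had the smallest p in HSS with all libraries, at log2 fold changes of 0.44, 0.43 and 0.36, and Rabggta and Fntb passed without Vortex replicate 2 (edgeR adjusted p = 0.0227 and 0.0353). In Vortex 1 was lower and 2 were higher, and without replicate 2, 3 and 6. The called genes with all libraries were the CAAX proteases Zmpste24 (log2 fold change -0.71, SE 0.19, edgeR adjusted p = 0.0371) and Rce1 (0.80, SE 0.17, edgeR adjusted p = 0.017), and the dolichol enzyme Srd5a3 (0.90, SE 0.23, edgeR adjusted p = 0.0346).

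Of 22 tested genes of fatty acid oxidation, edgeR called 0 in each comparison with all libraries. Once Vortex replicate 2 was left out it called 2 lower and 5 higher in HSS and 3 lower and 2 higher in Vortex against PSS. In Vortex against HSS it then called 2 lower and 0 higher, where 10.0% of all genes were called lower and 13.9% higher. The fit of the HSS and PSS libraries alone called 2 lower and 6 higher, where 20.4% of all genes were called lower and 20.4% higher. At an unadjusted p under 0.05, 1 was lower and 4 higher in HSS, and 0 lower and 3 higher in Vortex, both against PSS; DESeq2 called 2 higher in each and limma-voom none. Cpt2, which passes acyl groups to the mitochondrial matrix, had a log2 fold change of 0.73 in HSS (SE 0.21, edgeR adjusted p = 0.0708). Acadl and Acaa1a, enzymes of the oxidation cycle, had 0.58 and 0.48 in HSS and 0.68 and 0.47 in Vortex, and Acads had 0.68 in Vortex, none past the test with all libraries. Without Vortex replicate 2, Cpt2, Acadl and Acaa1a passed in each of these comparisons, and Acads did not.

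Exon overlaps limit some values. In GENCODE M21 on GRCm38, 11 of the 29 genes share exon bases with another gene, 8 of them with one on the opposite strand. Whether the counting used strand is not stated in the labels, so reads of such pairs cannot be told apart. Among them, Hmgcs1 shares 557 bases with Gm48342, Idi1 323 bases with Gm48574, Fdft1 shares 774 bases with Ctsb, Cyp51 166 bases with Akap9 and Ggps1 257 bases with Arid4b, all on the opposite strand, while Fdps shares 1124 bases with the predicted gene Gm43738 and Tm7sf2 532 bases with Vps51 on the same strand. Acat2 and Idi1 also have close paralogs, Acat3 and Idi2, and reads that both copies could take leave these values uncertain.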

How the data were processed

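PolyA RNA of bEnd.3 cells under flow was sequenced, 3 libraries a group. The deposited table gives whole-number counts per gene and FPKM made by the authors. Per the submitters' processing notes the authors used HISAT2, HTSeq 0.13.5 and the build GRCm39; no source used here says whether strand was counted. For every gene, the count, FPKM and column total gave 1 gene length within 1e-06.

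Counts were tested with edgeR 4.0.16 (R 4.3.3): TMM scaling, filterByExpr, 1 mean per group over all 9 libraries, robust quasi-likelihood F test and Benjamini-Hochberg adjustment over 15774 genes. Group spread was shared, and the biological coefficient of variation was 0.350. CPM values are TMM-scaled, and standard errors are the log2 fold change over the square root of F. Levels between genes use FPKM. Total counts of 17407217 to 22965802 set the counting precision. An exact permutation test of 3 against 3 libraries cannot go below p = 0.1, so none was run. On simulated counts with 200 changed genes the fit called 10%, 9% and 5% of 2-fold and 69%, 78% and 69% of 4-fold changes in HSS against PSS, Vortex against PSS and Vortex against HSS.

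The enzymes, the other gene lists, the markers and the motifs were chosen with earlier results of these data known. Every enzyme is accounted for. Values per library are printed for the enzymes with the largest and smallest change of each role against PSS and for all called higher, and each other list names its 3 smallest p against PSS. Hmgcs1, the other gene called in all 9 fits, was given per library after its values were seen. Replicate numbers did not pair the libraries: correlations of same-numbered deviations ran from -0.12 to 0.12. Alternatives were DESeq2 1.42.0, limma 3.58.1 (voom, and log2 of FPKM + 1 or + 0.1), other scaling and filters, a replicate block, fits of 6 libraries and leaving out each library. Removal of a lowess trend (span 0.3) on GC content from GENCODE M21 on GRCm38, which 98.5% of tested genes had, was chosen after seeing the data. Promoters are from the RefSeq table on GRCm38.p6.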

Additional observations from a re-analysis of the deposited data

How the results depend on the processing

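No enzyme called in a comparison changed direction under any alternative run. In HSS against PSS the median log2 fold change of the enzymes was -1.07 with library totals, -1.07 without a filter, -1.06 in the 6-library fit, and -0.82 and -1.01 on log2(FPKM + 1) and log2(FPKM + 0.1). All genes called numbered 1242, against 772 with the replicate block, 2456 by DESeq2, 6233 in the 6-library fit, where 26 enzymes were lower, and 4744 with the GC trend and Vortex replicate 2 both removed. In Vortex against PSS they numbered 2107, against 1258, 3489, 74 and 5912 in the same order. Lower enzymes were 11 by DESeq2, 11 on FPKM + 1, 1 in the 6-library fit and 19, with 1 higher, under the joint removal, and the median was -0.62 on FPKM + 0.1 and -0.68 under the joint removal. In Vortex against HSS they numbered 1111, against 357, 2700, 66 and 4244, and 713 without a filter. Higher enzymes were 4 with the block, 5 and 5 on the FPKM scales, 1 in the 6-library fit and 14 under the joint removal, and the median was 0.30 and 0.38 on FPKM + 1 and + 0.1 and 0.41 under the joint removal. The block also left 12 lower in HSS and 5 lower in Vortex against PSS; the numbers do not pair the libraries.

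Leaving out 1 library gave 285 to 4730 called genes, 7 to 22 lower enzymes and medians of -1.06 to -0.94 in HSS against PSS; 519 to 5888 genes, 2 to 18 lower and 0 to 1 higher enzymes in Vortex against PSS; and 25 to 3887 genes, 0 to 13 higher and 0 to 1 lower enzymes and medians of 0.40 to 0.70 in Vortex against HSS.

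Signs turned for enzymes that were not called in the fit of all 9 libraries, with all values in log2 fold change. The cause was not tested. With the GC trend removed Scd1 was 0.013 in HSS against PSS, and Mvk was -0.28, Ggps1 0.14 and Acaca 0.075 in Vortex against PSS, and Acaca was 0.16, Fasn -0.064 and Elovl5 0.16 in Vortex against HSS. By limma-voom Mvk was -0.027 in Vortex against PSS, and Fasn was -0.13 in Vortex against HSS. On FPKM + 1 Mvk was -0.18 and Scd1 -0.095 in Vortex against PSS, and Ggps1 was -0.086, Hsd17b7 -0.11, Acss2 -0.021, Fasn -0.26, Scd1 -0.044 and Scd2 -0.013 in Vortex against HSS. On FPKM + 0.1 Mvk was -0.22 and Scd1 -0.098 in Vortex against PSS, and Ggps1 was -0.11, Hsd17b7 -0.12, Acss2 -0.039, Fasn -0.28, Scd1 -0.046 and Scd2 -0.013 in Vortex against HSS. Under the joint removal Mvk was -0.79, Ggps1 0.057, Msmo1 0.12 and Fads1 -0.031 in Vortex against PSS, and Acat2 was -0.28, Mvk -0.11, Fasn -0.75 and Elovl5 0.10 in Vortex against HSS. Of these, Mvk in Vortex against PSS was called lower there (edgeR adjusted p = 0.0111). With library totals Ggps1 was -0.070, Hsd17b7 -0.11 and Acss2 -0.031 in Vortex against HSS. With the replicate block Fasn was -0.029 in Vortex against HSS. Leaving out 1 library moved Mvk over -0.59 to 0.53, Ebp over -0.24 to 0.12, Dhcr7 over -0.53 to 0.29, Acly over -0.65 to 0.077, Fasn over -1.04 to 0.36, Scd1 over -0.25 to 0.51 and Fads2 over -0.43 to 0.18 in Vortex against PSS. Leaving out 1 library moved Acat2 over -0.26 to 1.32, Mvk over -0.12 to 1.03, Ggps1 over -0.14 to 0.26, Hsd17b7 over -0.043 to 0.14, Acss2 over -0.068 to 0.22, Acaca over -0.24 to 0.12, Fasn over -0.75 to 0.68, Scd1 over -0.21 to 0.53, Scd2 over -0.070 to 0.31 and Elovl5 over -0.15 to 0.043 in Vortex against HSS.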
